A study of Mus musculus with 27 samples.

Results

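CHD and ISWI proteins are ATP-driven enzymes that slide, space or exchange nucleosomes, and they form remodeller families apart from SWI/SNF. The genes described here encode 10 of their catalytic subunits: the ISWI ATPases Smarca5 and Smarca1, the NuRD ATPases Chd3 and Chd4, the Chd1 and Chd2 pair, and the Chd6, Chd7, Chd8 and Chd9 group. They were chosen by gene name, not by a cutoff on their values, from 55487 genes in the count table of the E14 optic stalk. Earlier results of these data were known when they were chosen. All 10 passed the filter on low counts.

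The optic stalk (OS) joins the optic cup to the forebrain, guides the axons of retinal ganglion cells (RGCs) and gives rise to astrocyte progenitors of the optic nerve head. Geo-seq, which is RNA-seq of tissue cut out by laser-capture microdissection, was carried out on the dorsal OS, the ventral OS and the RGC axon region of mouse embryos at E14, where E is the embryonic day. The mutants (Smarcc1-DCT-cKO) were Smarcc1 loxP/loxP;Dct-Cre embryos carrying the Z/EG reporter, and the controls were littermates without Dct-Cre, all on a C57Bl6/J background. Smarcc1 (also Baf155) is a scaffold subunit of SWI/SNF. Dct-Cre acts in the retinal pigment epithelium (RPE) and in the OS, where it starts dorsally. By antibody labelling the paper reports that Smarcc1 was lost from the whole OS of mutants by E14. Cells of other origin in a captured piece keep Smarcc1. There were 4 control and 5 mutant embryos, with 1 library for each embryo and region, which makes 27 libraries in 6 groups. Batch A held 1 control and 3 mutant embryos and batch B held 3 control and 2 mutant embryos. The comparisons ask whether other remodeller ATPases differ in RNA level where a SWI/SNF subunit was deleted, and whether they differ between the regions of the OS.

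In these remodellers the ATPase motor is alike, and the flanking domains and partner subunits set where it acts. Smarca5 (SNF2H) and Smarca1 (SNF2L) work with partners such as Baz1a, Baz1b, Bptf and Rsf1 and are known for evenly spacing nucleosomes. Chd3 and Chd4 join remodelling to histone deacetylation in the NuRD complex, and Chd4 also acts with Adnp in ChAHP. Chd1 and Chd2 bind methylated histone tails near active promoters and travel with transcribing polymerase. Chd7 is the gene mutated in CHARGE syndrome, in which coloboma, an incomplete closure of the optic fissure, is frequent. Chd8 is a neurodevelopmental disease gene that binds beta-catenin, and Chd6 and Chd9 are their less studied relatives.

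The libraries held 10.9 to 34.0 M counts (M, 1e6) and 9225 to 16810 genes with at least 1 count. Levels are given as CPM, the counts of a gene per M counts of the library, and 1 read was worth 0.0294 to 0.0917 CPM. Smarcc1 was at 75.9 to 289 CPM in the dorsal controls and at 94.9, 107, 2.26, 44.3 and 24.5 CPM in dorsal mutants 1 to 5, so dorsal mutants 1 and 2 overlapped the controls. The dorsal comparison was therefore also run without these 2 libraries, a choice made after seeing the data, and 0 of the 10 members were called in it. Smarcc1 counts cover all exons of the gene and do not measure its protein. Neurofilament Nefm, a marker of RGC axons, was at 767 to 1757 CPM in the axon libraries and at most 212 CPM elsewhere. Pax2, a marker of the stalk, had a mean of 28.0 CPM ± 18.3 (SD, n = 4) in dorsal controls and 2.94 CPM ± 2.15 (SD, n = 5) in dorsal mutants. In bulk samples such as these, fewer cells of a type and less RNA per cell cannot be told apart.

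On mm10 the genes are Chd1 (chr17:15704967-15772610, plus strand), Chd2 (chr7:73426638-73541830, minus), Chd3 (chr11:69343273-69369406, minus), Chd4 (chr6:125095981-125130591, plus), Chd6 (chr2:160946978-161109075, minus), Chd7 (chr4:8690406-8867659, plus), Chd8 (chr14:52198151-52257780, minus), Chd9 (chr8:90828352-91054516, plus), Smarca1 (chrX:47809368-47892974, minus) and Smarca5 (chr8:80698507-80739497, minus). Values count reads over the exons of each gene. None of their transcripts shared a 50-base window with another of the 10 (0 windows). Chd2 shared 18.0% of its windows with other genes, mostly with the overlapping gene 1810026B05Rik, which was at a mean of 18.4 CPM. Smarca5 shared 28.2%, mostly with Gm13135, which had a count of 0 in all 27 libraries, and Chd8 shared 4.72%, mostly with Gm26590 on the other strand. How reads in shared stretches were assigned is not given in the sources used here, so levels of these 3 genes are uncertain to that degree.

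All 10 ATPases were expressed in the E14 OS, and the order of their levels was led by one ISWI and one NuRD enzyme. Divided by the length of its exons, Smarca5 had the highest mean over 27 libraries, 17.2 CPM per kb, and it was the highest of the 10 in 13 libraries. Chd4 followed with 16.4 CPM per kb and was the highest in 10 libraries. These levels per kb were at the 82.2 and 81.6 percentiles of the genes tested. The next group held Chd3 (9.10 CPM per kb), Smarca1 (8.89) and Chd7 (7.62), followed by Chd1 (4.62), Chd6 (3.77), Chd2 (3.48), Chd9 (2.97) and Chd8 (2.77). Even Chd8, the lowest, was at the 45.5 percentile of tested genes.

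Only 2 steps in this order were larger than their spread over the 9 embryos. Chd4 exceeded Chd3 by 7.28 CPM per kb ± 4.49 (SD, n = 9), in 9 of 9 embryos, and Chd7 exceeded Chd1 by 2.99 CPM per kb ± 2.23 (SD, n = 9), again in 9 of 9. The other neighbours differed by less than 1 SD. Smarca5 exceeded Chd4 by 0.817 CPM per kb ± 3.59 (SD, n = 9) and in 6 of 9 embryos. So Smarca5 and Chd4 had the highest means, but the data do not order them, nor the genes within the groups below. Only neighbours in the order were compared over embryos. Smarca5 and Chd4 were among the 2 highest in 21 and 17 of 27 libraries, and Smarca1 and Chd3 were each the highest in 2. In the plot of levels per kb the means of Smarca5 and Chd4 stand above the others in every group but the axon mutants.

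**Figure D1:**
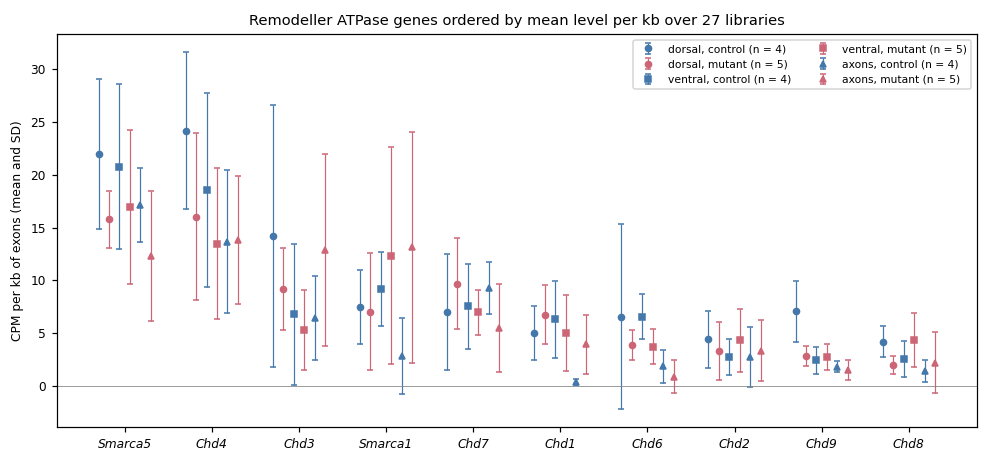
Level per kb of exons (CPM per kb) of the 10 ATPase genes in each of the 6 groups, with genes ordered by their mean over 27 libraries. Points are group means and bars are SD (4 controls, 5 mutants); Smarca5 and Chd4 average 17.2 and 16.4 CPM per kb and Chd8 averages 2.77.

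Levels per library varied far more than counting error would give. At the median count of each gene, 590 (Chd8) to 2176 (Smarca5), counting error alone is 4.12% to 2.14%. The coefficient of variation (CV) between libraries of one group averaged 33.6% for Smarca5, 44.2% for Chd9, 46.0% for Chd4 and 51.8% for Chd7, and reached 85.9% for Chd6. The median over the 10 genes was 65.9%, against 65.9% over the 3288 tested genes whose mean CPM lay in the same range. Among those genes Smarca5 had a low CV, at the 2.31 percentile, and Chd6 a high one, at the 85.2 percentile. The mean of Smarca5 (134 CPM) was the upper end of the range (40.3 to 134 CPM). Its percentile is therefore against genes of equal or lower mean level. The libraries were amplified by PCR and carry no molecular identifiers, so these counting errors and the limits for a count of 0 cover counting error only. Of the 270 values of the 10 genes, 2 were counts of 0, both in axon control 1 (Chd1 and Smarca1), and such a count allows up to 0.0883 to 0.275 CPM depending on the library.

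**Figure D2:**
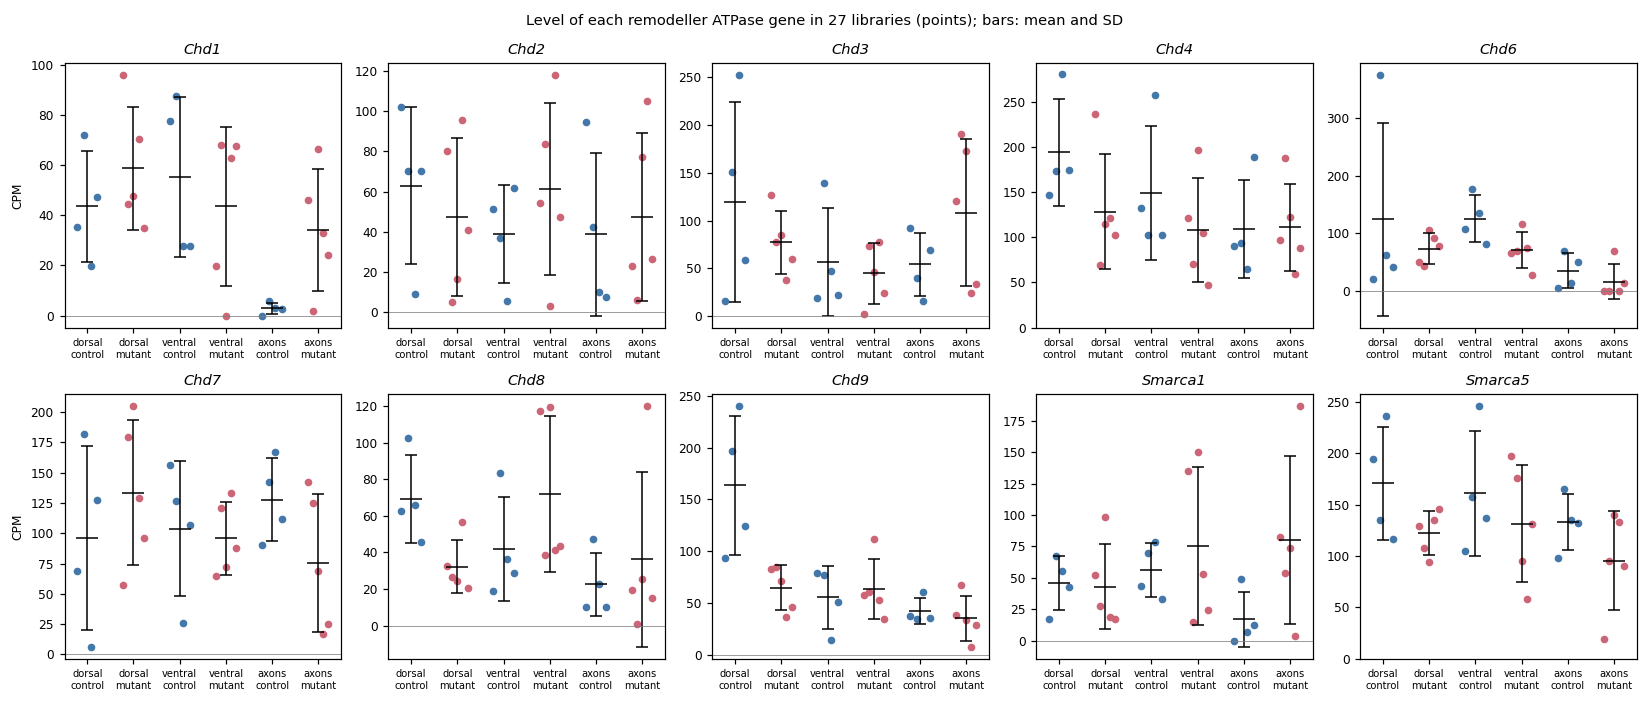
CPM of the 10 genes in each of 27 libraries (points, blue for controls and red for mutants), by region and genotype. Black bars are the mean and SD of the group; Chd9 in dorsal controls (93.2 to 240 CPM) and Chd1 in axon controls (0 to 5.78 CPM) stand apart from their neighbours.

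The first comparison was between mutant and control embryos within each region, by edgeR with batch as a term and Benjamini-Hochberg adjustment over all genes tested. A call needed both an adjusted p under 0.05 and a log2 fold change beyond 0.58 in either direction. None of the 10 ATPases was called in the dorsal, ventral or axon region, and adjusted p of the members was at least 0.918, 0.999 and 0.880. In the dorsal region 0.0124% of the 16145 genes tested were called (2 genes), in the ventral region 0% of 16139 and in the axons 0% of 14977. The absence of a call among the 10 therefore matches the background. At an unadjusted p under 0.05 stood 1 of 10 members dorsally (Chd9; all genes 5.35%), 0 of 10 ventrally (515 genes) and 0 of 10 in the axons (531 genes). DESeq2 and limma voom also called 0 of the 10 in each region.

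Dorsally 8 of the 10 fitted differences were below 0, with a median log2 fold change of -0.45 against -0.04 over all genes tested and a range of -1.48 to 0.52. Ventrally 7 of 10 were below 0, with a median of -0.12 against -0.08. In the axons 6 of 10 were below 0, with a median of -0.10 against -0.29 over all genes. The summed level of the 10 genes was 1090 CPM ± 355 (SD, n = 4) in dorsal controls and 781 CPM ± 128 (SD, n = 5) in dorsal mutants. Ventrally the sums were 844 CPM ± 169 (SD, n = 4) and 767 CPM ± 140 (SD, n = 5), and in axons 583 CPM ± 89.5 (SD, n = 4) and 640 CPM ± 146 (SD, n = 5). In each region the sums of the genotypes differed by less than the larger of their SDs.

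**Figure D3:**
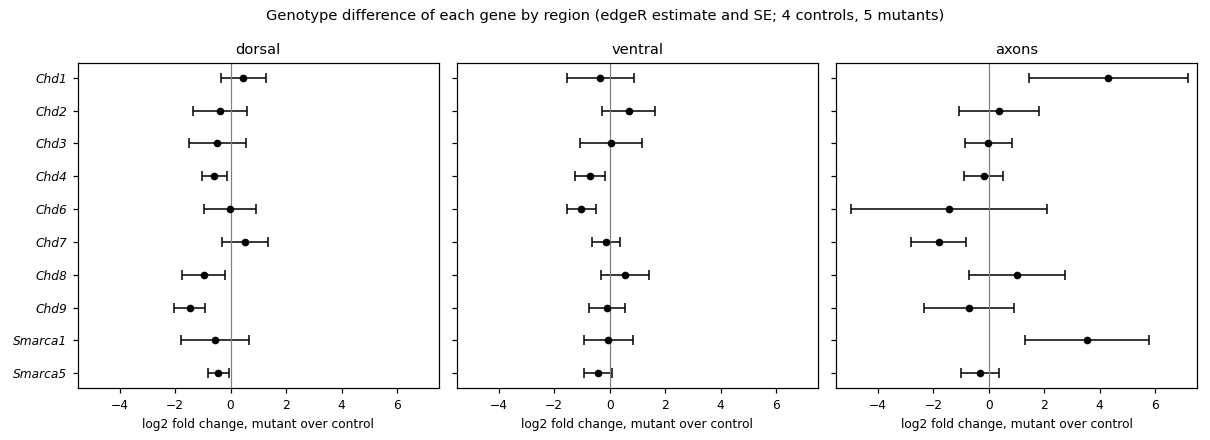
Log2 fold change of mutant over control for each of the 10 genes in the dorsal, ventral and axon regions (edgeR estimate, bars SE; 4 controls and 5 mutants). Chd9 is the lowest dorsally at -1.48, and the estimates for Chd1, Chd6 and Smarca1 in axons have SE of 2.24 to 3.54.

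The ISWI ATPases gave no call between genotypes. Smarca5 was at 195, 135, 237 and 117 CPM in dorsal controls and at 130, 108, 93.8, 136 and 146 CPM in dorsal mutants, and the groups overlapped. Its ventral means were 161 CPM ± 60.8 (SD, n = 4) and 132 CPM ± 57.0 (SD, n = 5), and its axon means 133 CPM ± 27.4 (SD, n = 4) and 95.7 CPM ± 48.0 (SD, n = 5). The fitted 95% intervals of its log2 fold change ran from -1.17 to 0.29 dorsally and from -1.42 to 0.58 ventrally. Smarca1, the X-linked ISWI gene, was at 0, 49.0, 6.56 and 12.7 CPM in axon controls and at 82.8, 54.1, 74.1, 3.68 and 187 CPM in axon mutants. Mutant 4 lay below 3 of the 4 controls and the other 4 mutants lay above all of them, and the interval of the log2 fold change, -0.84 to 7.94, includes 0.

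The NuRD ATPases likewise overlapped between genotypes in every region. Chd4 was at 147, 174, 281 and 174 CPM in dorsal controls and at 236, 69.2, 114, 121 and 102 CPM in dorsal mutants. Of the mutants, 4 of 5 lay below every control, and mutant 1 lay above 3 of the controls. Chd4 had fitted differences below 0 in all 3 regions, with intervals of -1.48 to 0.31 dorsally, -1.78 to 0.37 ventrally and -1.56 to 1.20 in axons. Chd3 ranged from 15.9 to 252 CPM within the 4 dorsal controls alone, a spread that held all 5 dorsal mutants (37.9 to 126 CPM).

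Of the Chd1 and Chd2 pair, Chd1 had the largest fitted genotype difference of the 10, in the axons. Chd1 was at 0, 5.78, 2.86 and 2.79 CPM in axon controls and at 46.1, 1.66, 66.4, 32.7 and 24.0 CPM in axon mutants. Of the 5 mutants, 4 lay above all controls and mutant 2 lay among them. The edgeR log2 fold change was 4.32 with a 95% interval of -1.32 to 9.95 and was not called (adjusted p = 0.880). An exact permutation test (two-sided) on log2(CPM + 1) gave p = 0.0397, or 0.939 adjusted over all genes of the region, and 4.91% of all axon genes had such a p under 0.05. With splits kept within batches the exact p was 0.0250, the smallest that 40 splits can give. Chd1 overlapped between genotypes in the dorsal and ventral OS. Chd2 varied over 4.89 to 95.4 CPM in dorsal mutants and 9.26 to 102 CPM in dorsal controls, and the groups overlapped.

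In the Chd6 to Chd9 group the lower dorsal level of Chd9 in mutants was the difference that most exceeded the spread. Chd9, also known as chromatin-related mesenchymal modulator, was at 93.2, 197, 240 and 124 CPM in dorsal controls and at 82.8, 85.0, 71.1, 36.8 and 46.4 CPM in dorsal mutants. The groups did not overlap, with all 5 mutants below all 4 controls, and their means were 164 CPM ± 66.9 (SD, n = 4) and 64.4 CPM ± 21.7 (SD, n = 5). Of the genes tested dorsally 2.92% had groups that did not overlap, and Chd9 was 1 of 10 members. The edgeR log2 fold change was -1.48 ± 0.57 (SE, unadjusted p = 0.0230), and it was not called (adjusted p = 0.918). The exact permutation p was 0.00794, the smallest that 126 splits can give, or 0.450 adjusted over all genes, and 7.66% of dorsal genes had such a p under 0.05. DESeq2 gave an adjusted p of 0.0539.

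The Chd9 difference was unequal between the batches. Within batch A, 1 control at 93.2 CPM stood against mutants at 82.8, 85.0 and 71.1 CPM, a log2 fold change of -0.24. Within batch B, controls at 197, 240 and 124 CPM stood against mutants at 36.8 and 46.4 CPM, a log2 fold change of -2.16. Leaving out mutant 4 gave -1.10 (adjusted p = 1.00 by edgeR), leaving out control 1 gave -2.15, and leaving out mutants 1 and 2, whose Smarcc1 overlapped the controls, gave -1.62 (adjusted p = 0.889). In the other regions the Chd9 groups overlapped. Ventral controls (14.3 to 79.3 CPM) stood against ventral mutants (34.6 to 111 CPM), and axon controls (34.3 to 60.4 CPM) against axon mutants (7.65 to 67.0 CPM). The difference between the dorsal and the ventral genotype effects was -1.69 on the log2 scale with an adjusted p of 0.790 by edgeR, so the genotype effect of Chd9 was not shown to be particular to the dorsal OS.

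In the dorsal libraries the marker sums of mesenchyme and of stalk and astrocyte progenitors did not overlap between genotypes. Those of the other marker lists did. The summed level of 11 mesenchyme markers was 1159, 3290, 10389 and 1834 CPM in dorsal controls 1 to 4 and 55.6 to 373 CPM in dorsal mutants, and 0 of the 11 were at 0 in all libraries of either group. Dorsal controls 1, 4, 2 and 3 stood in this rising order both in mesenchyme sum and in Chd9 (93.2, 124, 197 and 240 CPM). Among dorsal mutants the order was the reverse except between mutants 4 and 5. These 2 had the highest mesenchyme sums (256 and 373 CPM) and the lowest Chd9 (36.8 and 46.4 CPM), with mutant 5 higher in both. Control 1 and mutants 1 to 3 were of batch A, the others of batch B. Mutant 2 had the lowest sum (55.6 CPM) and the highest Chd9 (85.0 CPM). The 12 stalk and astrocyte progenitor markers summed to 3214 to 3975 CPM in dorsal controls and 1236 to 2238 CPM in dorsal mutants, without overlap. Pigment cell markers (8 genes) summed to 39.5 to 4912 CPM in controls and 3143 to 12280 CPM in mutants, and proliferation markers (12 genes) to 1401 to 3304 CPM and 3056 to 4429 CPM. Endothelial markers (8 genes) summed to 227 to 444 and 43.2 to 488 CPM, erythroid markers (8 genes) to 559 to 20955 and 165 to 6261 CPM, and microglia markers (6 genes) to 0 to 94.0 and 0 to 141 CPM. The part of these cell types in the Chd9 result was not tested.

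Chd8 also lay lower in dorsal mutants, with a small overlap. It was at 62.9, 102, 65.8 and 45.8 CPM in dorsal controls and at 32.8, 26.7, 24.2, 56.9 and 20.8 CPM in dorsal mutants. Of the mutants 4 of 5 lay below every control, and mutant 4 lay above control 4. The exact permutation p was 0.0238 (0.582 adjusted over all genes) and 0.05 within batches, and the edgeR interval of the log2 fold change, -2.48 to 0.55, includes 0. In the ventral OS Chd8 went the other way, from 41.9 CPM ± 28.4 (SD, n = 4) in controls to 72.1 CPM ± 42.5 (SD, n = 5) in mutants, with overlap and an exact permutation p above 0.05. Ventrally 4.12% of all genes had such a p under 0.05, and 0 of the 10 members did. The difference between the dorsal and ventral genotype effects of Chd8 was -2.14 on the log2 scale (adjusted p = 0.941 by edgeR).

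Chd6 and Chd7 overlapped between genotypes in all regions. Chd6 was at 107, 177, 135 and 81.7 CPM in ventral controls and at 65.6, 69.7, 117, 74.4 and 28.3 CPM in ventral mutants, with 4 of 5 mutants below every control. Its log2 fold change interval ventrally was -2.07 to 0.03. In dorsal controls Chd6 was carried by control 2 at 374 CPM, with the others at 21.2, 61.8 and 41.3 CPM. Chd7, the coloboma gene, was at 68.7, 182, 6.25 and 127 CPM in dorsal controls and at 57.6, 179, 205, 130 and 96.3 CPM in dorsal mutants. In axons it was at 90.1, 142, 167 and 112 CPM in controls and at 142, 125, 68.5, 16.8 and 24.8 CPM in mutants, with an interval of -3.74 to 0.13.

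The raw counts of the 3 libraries of each embryo were also summed, so a deeper library weighs more in its sum. In mutant 3 the ventral library held 34.0 M counts, against 14.1 M dorsally and 14.7 M in axons. Between genotypes 0 of 10 members and 0% of 16330 genes were called in these sums, and 4.67% of genes had an unadjusted edgeR p under 0.05. Chd9 was the only member at that level, with a log2 fold change of -0.89 ± 0.40 (SE; edgeR unadjusted p = 0.0472, adjusted p = 1.00). The summed level of Chd9 was 85.7 CPM ± 19.7 (SD, n = 4) in control embryos and 55.5 CPM ± 22.6 (SD, n = 5) in mutant embryos, with overlap (controls from 65.4 CPM, mutants to 84.1 CPM). The log2 fold change of these sums was -0.02 within batch A and -1.37 within batch B. Smarca5 was the member whose embryo sums did not overlap. It was at 138, 153, 207 and 129 CPM in control embryos and at 120, 122, 105, 111 and 118 CPM in mutant embryos, and 2.05% of all genes had sums without overlap. Its log2 fold change of the sums had a 95% interval of -0.83 to 0.10 and an adjusted p of 1.00 by edgeR.

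The second question was whether the ATPases differ between the regions of the OS. Among controls 0 of 10 members were called between dorsal and ventral (0% of 16118 genes), between dorsal and axons (0.0692% of 15899) or between ventral and axons (0.0316% of 15839). Among mutants 0 of 10 were called in the same comparisons, where 0% of 16168, 0.545% of 15780 and 0.443% of 15804 genes were. Over both genotypes, with 27 libraries, 0 of 10 members were called, against 0.0306%, 2.09% and 1.06% of 16330 genes. The edgeR tests of the 10 genes in all 16 comparisons had an unadjusted p under 0.05 in 9 of 160 cases (5.62%), against 11.2% of the tests of all genes. These 9 cases were all Chd1 (4) or Chd9 (5), and the lowest adjusted p among the 160 was 0.111.

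Chd1 was low in the axon region of controls. Against 0, 5.78, 2.86 and 2.79 CPM in axon controls, it was at 35.1, 72.0, 19.9 and 47.2 CPM in dorsal controls and at 77.4, 87.4, 27.8 and 27.8 CPM in ventral controls. All 4 axon controls lay below all dorsal and all ventral controls. Groups without overlap were found for 4.41% of genes between dorsal and axons and for 3.8% between ventral and axons, and 2 of 10 members showed this in each (Chd1 and Chd9, and Chd1 and Chd6). Ventral exceeded axon controls by 4.10 ± 1.74 (log2, SE; edgeR unadjusted p = 0.0360, adjusted p = 0.453), where 9.19% of genes had an unadjusted p under 0.05. With the replicate number as a block the value was 4.31 with an adjusted p of 0.902. DESeq2 called Chd1 in the ventral comparison (adjusted p = 0.0240; 2.68% of genes called) and called Chd1 and Chd9 in the dorsal one (adjusted p = 0.0388 and 0.0182; 3.54% of genes called).

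In mutants the axon level of Chd1 was low in 1 library. Mutant axons held 46.1, 1.66, 66.4, 32.7 and 24.0 CPM, which overlapped the dorsal mutants at 95.8, 44.5, 47.8, 70.2 and 34.9 CPM. Ventral mutants were at 19.6, 68.0, 0.0294, 62.7 and 67.6 CPM, where mutant 3 had a single read. Averaged over genotypes, Chd1 was higher in dorsal than in axon libraries by 2.18 ± 0.93 (log2, SE; unadjusted p = 0.0266, adjusted p = 0.168 by edgeR). It was higher in ventral than in axon libraries by 2.13 ± 0.93 (unadjusted p = 0.0292, adjusted p = 0.200 by edgeR). Of all genes 20.6% and 18.4% had an unadjusted p under 0.05 in these comparisons, so that 2 of 10 and 1 of 10 members are near the background. With the replicate number as a block the values were 2.20 (adjusted p = 0.397) and 2.24 (adjusted p = 0.468).

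**Figure D4:**
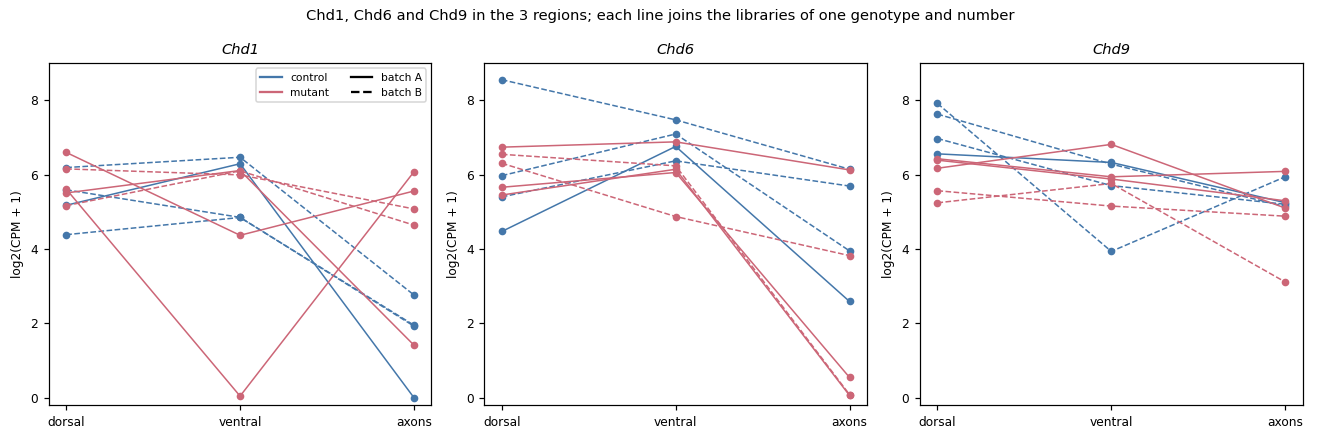
Level of Chd1, Chd6 and Chd9 as log2(CPM + 1) in the dorsal, ventral and axon regions, with 1 line for each of 4 control (blue) and 5 mutant (red) numbers and dashes for batch B. The 4 control lines of Chd1 end below the lines of 4 of the 5 mutants in axons, and Chd9 falls from dorsal to axons in 9 of 9 lines.

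Whether genotype changed the regional difference was tested in a model of all 27 libraries. Between dorsal and ventral, dorsal and axons, and ventral and axons, 0 of 10 members were called, against 0.00612%, 0.0245% and 0.00612% of 16330 genes. Chd1 had the smallest p, for ventral against axons, where the genotype effect was lower ventrally by -4.15 ± 1.91 (log2, SE; edgeR unadjusted p = 0.0381, adjusted p = 0.431). At that level stood 10.4% of all genes. DESeq2 called this difference (adjusted p = 0.0475), along with 8.49% of all genes. With the replicate number as a block the value was -3.96 with an adjusted p of 1.00.

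Chd9 was highest in the dorsal OS of controls. Its dorsal controls (93.2 to 240 CPM) lay above all ventral controls (79.3, 76.8, 14.3 and 51.1 CPM) and all axon controls (36.9, 34.3, 60.4 and 35.8 CPM). Of the genes tested 2.71% had groups without overlap between dorsal and ventral controls, and Chd9 was the only member among them. The dorsal level exceeded the ventral by 1.57 ± 0.58 (log2, SE; unadjusted p = 0.0198, adjusted p = 0.615 by edgeR; 6.74% of genes at this level) and the axon level by 1.75 ± 0.59 (unadjusted p = 0.0111, adjusted p = 0.386 by edgeR; 10.5% of genes). With the replicate number as a block these were 1.63 (adjusted p = 1.00) and 1.71 (adjusted p = 0.800). The dorsal controls that set these values are also those used in the genotype comparison, so these are not separate observations. In mutants dorsal and ventral levels of Chd9 were alike in mean, 64.4 CPM ± 21.7 (SD, n = 5) and 63.5 CPM ± 28.6 (SD, n = 5).

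Within embryos, taking libraries of one genotype and number as one embryo, Chd9 was higher in dorsal than in axon libraries in 4 of 4 controls and 5 of 5 mutants. Over both genotypes the difference was 1.25 ± 0.47 (log2, SE; unadjusted p = 0.0124, adjusted p = 0.111 by edgeR). With the replicate number as a block it was 1.26 with an adjusted p of 0.272. DESeq2 called it (adjusted p = 0.000695), as it did Chd1 (adjusted p = 0.0112), while it called 15.2% of all genes in that comparison. In ventral against axons it called Chd1 (adjusted p = 0.0216) and 14% of all genes. Mesenchyme markers summed to 400 to 2526 CPM in axon controls and 55.4 to 1305 CPM in ventral controls, overlapping each other, and 3 of the 4 dorsal controls lay above the ventral maximum. In mutants, where Chd9 was also higher in dorsal than in axon libraries, the same markers were lower in dorsal than in axon libraries, at 55.6 to 373 CPM in dorsal mutants and 629 to 2265 CPM in axon mutants, without overlap. Their part in the dorsal level of Chd9 was not tested.

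Chd6 was low in most axon libraries. The number of genes with a count was 9225 to 11358 in axon mutants, below the 12396 to 15177 of dorsal and the 12918 to 15086 of ventral mutants. In controls it was 10076 to 14118 in axons, overlapping the 10881 to 16266 of dorsal and the 11727 to 16810 of ventral libraries. The part of this in the levels of Chd6 and Chd1 was not tested. Chd6 was at 5.01, 69.7, 14.4 and 50.7 CPM in axon controls and at 0.458, 0.0426, 68.8, 0.0584 and 13.1 CPM in axon mutants, of which mutants 2 and 4 had at most 3 reads. It was higher in ventral than in axon libraries in 4 of 4 controls and 5 of 5 mutants and higher in dorsal than in axon libraries in 3 of 4 and 5 of 5. In edgeR the difference did not reach an unadjusted p of 0.05. In limma voom it was called over both genotypes, with dorsal above axons by 3.43 (adjusted p = 0.0325; 5.69% of genes called) and ventral above axons by 3.79 (adjusted p = 0.0179; 4.77% of genes called).

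For the other ATPases no regional comparison reached an unadjusted p of 0.05, and for some of them the fitted direction differed between the genotypes. The fitted dorsal over axon difference of Smarca1 was 1.26 on the log2 scale in controls and -1.11 in mutants. Chd3 was at 0.97 and -0.68 in the same comparison, and its interaction with genotype had an adjusted p of 0.752 by edgeR, against 0.727 for Smarca1. Averaged over the genotypes the dorsal over axon difference was 0.04 to 0.34 for Smarca5, Chd4, Chd7, Chd2, Chd3 and Smarca1 and 0.68 for Chd8. The ventral over axon difference was 0.94 for Chd8 and -0.67 for Chd3, and the dorsal over ventral difference of Chd3 was 0.91. The 10 genes had a median dorsal over axon difference of 0.29, against 0.43 over all genes tested. Within control embryos Chd8 was higher in dorsal than in ventral, in dorsal than in axon and in ventral than in axon libraries, in 4 of 4 each. In mutants these directions held in 1, 3 and 4 of 5. Smarca1 was lower in axon than in dorsal and than in ventral libraries in 4 of 4 controls, against 2 and 3 of 5 mutants. Chd2 and Chd4 were higher dorsally than ventrally in 4 of 4 controls, against 2 and 3 of 5 mutants. These are the cases among these genes in which all 4 controls agreed, and so few embryos often agree by chance. The share of all genes with such agreement was not counted, here or for Chd6 and Chd9 above. No regional pattern is read from these counts. Chd7 was at 128 CPM ± 34.0 (SD, n = 4) in axon controls, against 96.1 CPM ± 75.7 (SD, n = 4) dorsally and 104 CPM ± 55.9 (SD, n = 4) ventrally. RGC and axon markers (10 genes) summed to 2145 to 4868 CPM in the axon libraries and 86.0 to 1355 CPM elsewhere. Of these, the RGC transcription factor Pou4f2 was at 0 in all axon libraries, all dorsal libraries and all ventral controls. Its absence is therefore not particular to the axon region. Pou4f1 was at 0 in all libraries of axon controls but of no other group.

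The ATPases did not rise and fall together. Over the 45 pairs of the 10 genes, Pearson's r of log2(CPM + 1) over 27 libraries had a median of 0.08 and ran from -0.37 (Chd7 with Smarca5) to 0.48 (Chd1 with Chd2). These libraries share embryos, batches and amplification, and r is given as a description. Among 7286 other genes with a mean of at least 20 CPM, the gene most like each member was Nol12 for Smarca5 (r = 0.86), Abhd10 for Chd6 (0.86), Aplp2 for Smarca1 (0.80), Slit2 for Chd8 (0.79), Dhx8 for Chd2 (0.78), Mettl1 for Chd7 (0.77), Clcn5 for Chd1 (0.77), Lamb1 for Chd9 (0.74), Igfbp4 for Chd3 (0.73) and Samd5 for Chd4 (0.70). Each of these is the highest of 7286 values, so a high r is found by selection.

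The partners of these ATPases gave no call between genotypes either. Of 11 ISWI partner subunits, all tested, 0 were called in any comparison, and 1 of 176 tests (0.568%) had an unadjusted edgeR p under 0.05, against 11.2% of the tests of all genes. Their median log2 fold change was 0.19 dorsally, -0.10 ventrally and -0.25 in axons, against -0.04, -0.08 and -0.29 over all genes. The partners with the smallest p dorsally were Baz1b, a bromodomain partner of Smarca5 (66.1 CPM ± 17.7, SD, n = 4, in controls and 127 CPM ± 60.4, SD, n = 5, in mutants), and the histone-fold subunit Chrac1 (228 CPM ± 82.7, SD, n = 4, and 164 CPM ± 56.7, SD, n = 5). In axons they were Chrac1 (146 CPM ± 70.3, SD, n = 4, and 102 CPM ± 43.1, SD, n = 5) and Baz2a, the ATPase partner in the nucleolar remodelling complex (10.9 CPM ± 4.60, SD, n = 4, and 8.19 CPM ± 16.3, SD, n = 5). Adjusted p of these was at least 0.916 by edgeR.

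Of 13 NuRD and ChAHP partners of Chd3 and Chd4, 12 were tested, and 0 were called. Adnp had at most 11 counts in any library and was not tested. How reads in shared stretches were assigned is not given, so these low counts do not show that its RNA was absent. Unadjusted p was under 0.05 in 12 of 192 tests (6.25%), below the 11.2% of all genes. Mbd2, a methyl-DNA-binding NuRD subunit, was at 69.4 CPM ± 37.8 (SD, n = 4) in dorsal controls and 13.2 CPM ± 7.03 (SD, n = 5) in dorsal mutants, with an adjusted p of 0.918 by edgeR. Mta3, a NuRD scaffold subunit, was at 4.93 CPM ± 4.72 (SD, n = 4) and 39.2 CPM ± 51.9 (SD, n = 5) dorsally. In axons the heterochromatin protein gene Cbx1 was at 200.1 CPM ± 52.0 (SD, n = 4) in controls and 337 CPM ± 49.7 (SD, n = 5) in mutants. The NuRD subunit Mbd3 was at 164 CPM ± 84.3 (SD, n = 4) and 74.4 CPM ± 40.3 (SD, n = 5) there, and both had an adjusted p of 0.880 by edgeR. The list's median log2 fold change was -0.05, 0.11 and -0.05 in the dorsal, ventral and axon regions.

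Of 10 other SNF2-type ATPases 0 were called, and 12 of 157 tests (7.64%) had an unadjusted p under 0.05, against 11.2% over all genes. Ino80, the ATPase of the INO80 complex, was at 4.83 CPM ± 3.62 (SD, n = 4) in dorsal controls and 35.3 CPM ± 27.3 (SD, n = 5) in dorsal mutants (adjusted p = 0.918 by edgeR). Smarca2, one of the alternative SWI/SNF ATPases, was at 81.8 CPM ± 46.5 (SD, n = 4) in axon controls and 174 CPM ± 75.2 (SD, n = 5) in axon mutants (adjusted p = 0.880 by edgeR). The neuronal gene Chd5 had a count in 2 of 4 dorsal controls, with 88 counts at most, and in 0 of 5 dorsal mutants. The mean of the dorsal mutants was at least 7.62-fold lower, computed against 3 counts per library, with an adjusted p of 0.948 by edgeR. That bound rests on 1 control at 5.46 CPM, and without it the bound was 1.67-fold. In axons Chd5 was at or under 3 counts in controls and at 0 in mutants, and no fold is given. The median log2 fold change of this list was -0.03, -0.56 and -0.09 in the dorsal, ventral and axon regions.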

How the data were processed

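Geo-seq libraries (Smart-Seq2 cDNA, Nextera XT) were read as 150-bp single ends. The deposited file holds whole-number counts, made by the authors with Seq2Science defaults (STAR on mm10, HTSeq), with no scaling or filter. Tool versions, annotation release and strand setting are not given in the sources used here. Identifiers matched GENCODE M21 for 55227 of 55487 genes, and the 260 others hold 0.00287% of counts. The 10 members were matched by symbol. The members, gene lists, marker lists and tests were chosen with earlier results of these data known.

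Counts were tested with edgeR 4.0.16 (R 4.3.3; quasi-likelihood F-test, robust, TMM) after a filter, taken from the study, that kept the 16330 genes exceeding 10 counts in 3 or more of the 27 libraries. Genotype fits and 27-library fits had batch as a term, and regional fits within a genotype had none. SE were derived from the F statistic and are approximate, and 95% intervals were taken from the SE under a normal distribution. Exact permutation tests (two-sided) used log2(CPM + 1). Alternatives were RLE scaling, DESeq2 1.42.0, limma voom 3.58.1, the newer edgeR method, no filter, no batch term, each batch alone, the replicate number as a block and each library left out. Members were named in every group, and fitted values one by one at an unadjusted p under 0.05. Related genes were named where called or for the 2 smallest p per list dorsally and in axons.

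In simulated dorsal counts of 16145 genes with 200 changed 4-fold, edgeR called 23 changed and 3 unchanged genes, DESeq2 45 and 454, and limma voom 15 and 16. At 16-fold these were 61 and 9, 129 and 441, and 37 and 33. Libraries that share genotype and number were taken as 1 embryo, which the labels do not state in words. Libraries of 1 number and genotype correlated in their deviations from group means by -0.02 to 0.11 (27 pairs).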

Additional observations from a re-analysis of the deposited data

Results flagged for a closer look

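In 5 of 60 sets of member values (10 genes in 6 groups), or 8.33%, 1 library lay far from the others on the log2(CPM + 1) scale, by Dixon's criterion, which flags about 1 in 20 sets by chance. Ventral mutant 3 was at 0.0294 CPM of Chd1, where the other ventral mutants were at 19.6 to 68.0 CPM, and at 3.38 CPM of Chd2, where they were at 47.4 to 118 CPM. Dorsal control 3 was at 9.26 CPM of Chd2, against 70.1 to 102 CPM in the other dorsal controls. Axon control 3 was at 60.4 CPM of Chd9, against 34.3 to 36.9 CPM in the other axon controls. Axon mutant 1 was at 19.5 CPM of Smarca5, against 90.6 to 140 CPM in the other axon mutants.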

How the results depend on the processing

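The number of members called was 0 in all 16 comparisons by edgeR. It was also 0 in 252 of 259 refits. The refits covered RLE scaling, DESeq2, limma voom, the newer edgeR method, no filter and no batch term. They also covered 1 batch alone, the replicate block and each library or embryo left out in turn. The exceptions were DESeq2, which called 2 members between dorsal and axons in controls, 1 between ventral and axons in controls, 2 and 1 in the same comparisons over both genotypes and 1 for the genotype effect of ventral against axons, and limma voom, which called 1 (Chd6) in each of the dorsal and ventral comparisons with axons over both genotypes. DESeq2 called 563, 424, 2479, 2283 and 1387 of all genes in its 5 comparisons, where edgeR called 11, 5, 342, 173 and 1. Of the 30 exact permutation tests of members, 3 had a p under 0.05 (Chd8 and Chd9 dorsally, Chd1 in axons). Of all genes, 7.66% dorsally, 4.12% ventrally and 4.91% in axons had such a p. With splits within batches 2 of the 30 did, and the share of all genes was not counted for these splits.

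The paper's own differential tests used DESeq2. Between genotypes, DESeq2 with batch as a term called 532, 342 and 1238 of all genes in the dorsal, ventral and axon regions here. By limma voom it was 41, 6 and 45, by edgeR without the count filter 101, 8 and 10, and by the newer edgeR method 39, 0 and 0. The edgeR fit described called 2, 0 and 0, and the cause of these differences between tools was not tested. The replicate block changed no call of a member, and 0 were called with it. In the 4 genotype comparisons the block joined control and mutant embryos that share only a number, partly across batches, in place of the batch term and without mutant 5, so these 4 fits say little about stability. It lowered the calls over all genes from 11 to 2 (dorsal against axons, controls), from 86 to 42 and from 70 to 41 (dorsal and ventral against axons, mutants) and from 342 to 221 (dorsal against axons, both genotypes). Same-numbered controls and mutants correlated by -0.05 to 0.03 in their deviations from group means (12 pairs).

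None of the 9 fitted differences of Chd1 and Chd9 with an unadjusted edgeR p under 0.05 changed sign in 143 refits. Of these refits 6, all by DESeq2, were called. The 9 were picked by that p and the refits reuse the same libraries, so an unchanged sign adds little support. For Chd9 in batch A alone the log2 fold change was close to 0, at -0.24 dorsally and -0.02 in embryo sums. With 1 library or embryo left out, the dorsal log2 fold change of Chd9 ran from -2.15 (without control 1) to -1.10 (without mutant 4). In simulated dorsal counts a 4-fold change was called in 11.5% of the changed genes, so the absence of a call among the members does not show that changes of that size are absent.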
